A study of Mus musculus with 12 samples.

Results

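Interleukin-4 (IL-4) and interleukin-13 (IL-13) are type 2 cytokines that act through receptors feeding the transcription factor STAT6. The 9 genes described here encode the chain of proteins from those receptors to STAT6 and its feedback inhibitor: Il4ra, Il13ra1, Il13ra2, Il2rg, Jak1, Jak3, Tyk2, Stat6 and Socs1. They were chosen by name as parts of this pathway, with earlier results of these data known, and all 9 were found among 35241 gene symbols. RNA was sequenced from full-thickness distal colon of 12 mice, 6 Spry2IEKO mice (Vil1::Cre;Spry2-f/f) and 6 Spry2FF mice (Spry2-f/f without Cre). Both genotypes carry the floxed Spry2 alleles, and the Vil1 promoter directs Cre to the intestinal epithelium, so Spry2 was targeted in epithelial cells and not in the leukocytes, fibroblasts, muscle or vessels of the same tissue. Litters A and B each held 3 mice of each genotype. The labels give an age of 6 weeks in one field and 8 weeks in another. Of the Spry2FF mice 3 were male and 3 female, and of the Spry2IEKO mice 1 was male and 5 were female.

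IL-4 binds IL-4Rα (Il4ra) paired either with the common gamma chain (Il2rg) in the type I receptor or with IL-13Rα1 (Il13ra1) in the type II receptor, and IL-13 signals through the type II receptor. IL-13Rα2 (Il13ra2) binds IL-13 tightly and is best known as a decoy. The Janus kinases JAK1, JAK3 and TYK2 sit on the receptor tails and phosphorylate STAT6, which enters the nucleus, and SOCS1 inhibits the kinases. In the gut, IL-13 acting on the epithelium through this route drives tuft and goblet cell expansion and the expression of goblet cell products such as RELMβ. The common gamma chain and JAK3 are found mainly in blood-derived cells.

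The transcripts of Il4ra differ in what they can encode, which a sum over the gene hides. Il4ra lies on chromosome 7 from 125552120 to 125579474 (plus strand, GRCm38). Transcript Il4ra-201 encodes the full receptor, with 810 codons in 11 exons. Transcript Il4ra-205 includes an additional exon of 114 bases (chr7:125571934-125572047), which ends the reading frame at an early stop, so that 230 codons remain, and GENCODE annotates it as a target of nonsense-mediated decay. Alternative splicing to an early stop is the known origin of soluble IL-4Rα in the mouse. Both sequences below start with the last 24 bases of the shared exon (chr7:125571434-125571590), and the capitals mark the early stop codon; in Il4ra-201 the next exon is chr7:125572851-125572950.
Il4ra-201: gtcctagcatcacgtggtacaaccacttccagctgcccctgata
Il4ra-205: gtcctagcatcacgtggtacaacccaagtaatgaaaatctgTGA

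Il4ra-205 held the largest share of the Il4ra signal in all 12 mice, between 55.1% and 78.4% (median 70.8%). The full-length Il4ra-201 held 15.5% to 35.5% (median 21.3%), and the retained-intron transcript Il4ra-204 0% to 20.9%. In normalized TPM, a level corrected for transcript length and depth and then scaled between mice, Il4ra-205 was at 2.83 to 10.7 and Il4ra-201 at 0.852 to 2.77. Spry2IEKO mice had a mean share of Il4ra-205 of 65.8% ± 8.13 and Spry2FF mice one of 72.1% ± 6.13 (SD, n = 6 each), which did not differ beyond the spread (two-sided exact permutation test, p = 0.173). By litter it was 70.8% ± 7.63 in B and 67.1% ± 7.77 in A (SD, n = 6; exact permutation test, p = 0.398). The 2 transcripts also end 1507 bases apart, and short reads were divided between them by estimate, so the shares rest on that division as well as on the extra exon. The plot of transcript shares shows Il4ra-205 first in each mouse.

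**Figure D1:**
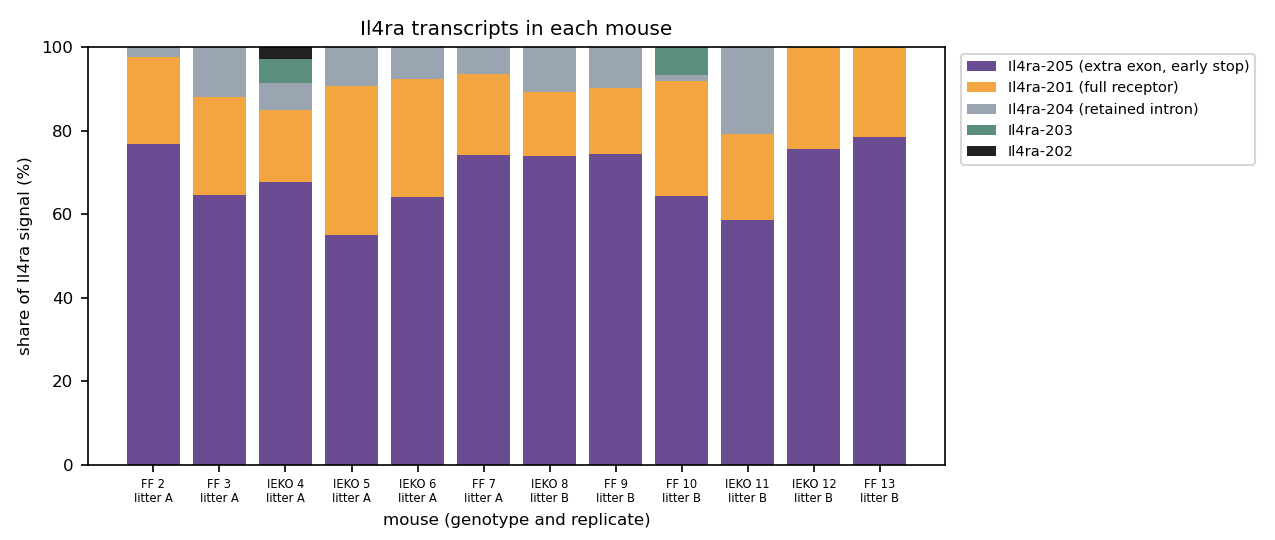
Share of the Il4ra signal held by each annotated transcript (vertical axis, percent) in each of 12 mice (horizontal axis, genotype with replicate number and litter); each bar sums to 100%. Il4ra-205, with the extra exon and early stop, is the largest part of every bar, from 55.1% to 78.4%, and Il4ra-201, the full receptor, is 15.5% to 35.5%.

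Spry2, the deleted gene, was at 18.5 to 22.5 normalized TPM in Spry2IEKO mice and at 22.8 to 32.3 in Spry2FF mice, so the genotypes did not overlap (20.04 ± 1.59 and 27.7 ± 3.29, SD, n = 6; exact permutation test, p = 0.00216, the smallest that 6 against 6 can give). In limma its log2 change was -0.45 (standard error 0.0877, adjusted p = 0.16), so it did not pass across all genes. The summed values of a mouse came to 918816 to 1069158, with 18655 to 19753 genes above 0. All 6 epithelial markers were present, with a summed level of 5857 to 8345, and every listed leukocyte, fibroblast, smooth muscle, endothelial, fat and neural marker was above 0 in some mice of each genotype. The tissue is thus a mixture, in which a change in the number of cells of a type and a change in RNA per cell cannot be told apart.

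Across the 12 mice the 9 genes spanned levels from 74.4 to 0.238 normalized TPM. The IL-13-binding chain Il13ra1 was highest (74.4 ± 13.5, SD, n = 12), above Jak1 in every mouse. Jak1 (54.6 ± 6.87) and Stat6 (50.1 ± 2.58) came next, and as Jak1 exceeded Stat6 in only 9 of 12 mice their order did not hold in each mouse. Tyk2 followed at 13.2 ± 0.999, above Il2rg in 8 of 12 mice. Il2rg (11.1 ± 12.6) and Il4ra (8.00 ± 3.16) could not be ordered, since the mean of Il2rg was larger but Il2rg exceeded Il4ra in only 5 mice. Jak3 (3.16 ± 0.860) was above Il13ra2 (2.49 ± 1.53) in 9 of 12 mice. Socs1 was lowest in every mouse, at 0.0446 to 0.606. Its mean of 0.238 ± 0.144 fell below the minimum of 0.5 that a gene needed to enter the fit across all genes, so 8 of the 9 genes were tested there and Socs1 was tested alone. Il13ra1 was thus well above Il4ra, the chain it pairs with in the type II receptor, in RNA of the whole tissue.

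The genes differed widely in how much they varied between mice. Stat6 was the steadiest, with a coefficient of variation of 5.14% and a highest level only 1.21 times the lowest. Tyk2 varied by 7.58%, Jak1 by 12.6% and Il13ra1 by 18.1%. Il2rg varied most, by 114%, with a highest level 36.2 times the lowest. Il13ra2 (61.6%), Socs1 (60.7%), Il4ra (39.5%) and Jak3 (27.2%) lay between.

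**Figure D2:**
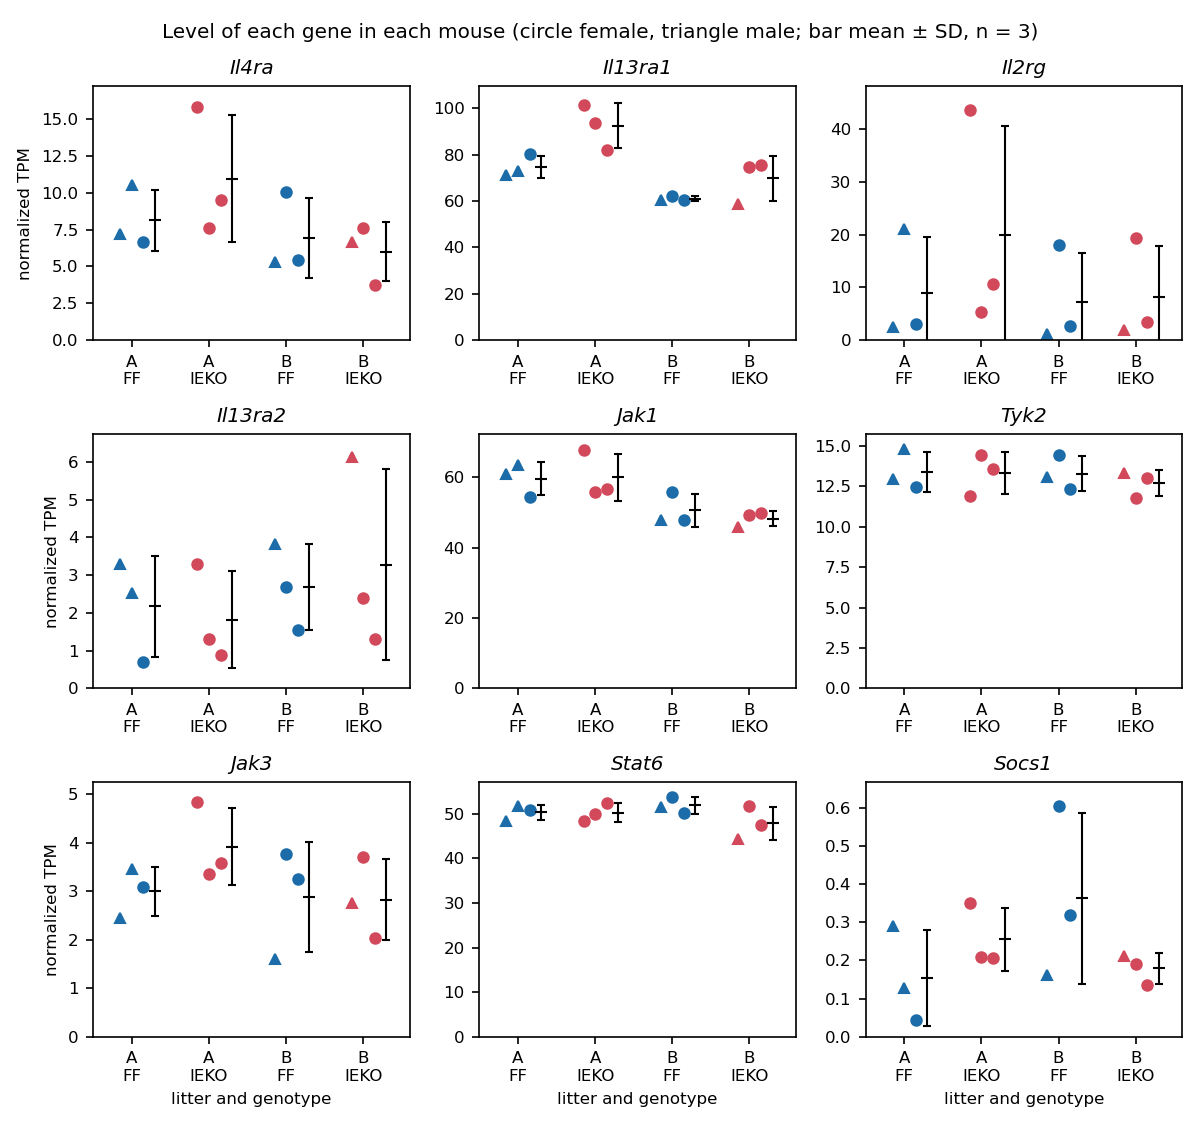
Level of each of the 9 genes (vertical axes, normalized TPM, each from 0) in each mouse, by litter (A or B) and genotype (FF, Spry2FF; IEKO, Spry2IEKO); circles are females, triangles males, and bars give the mean ± SD of 3 mice (bars that would pass below 0 are cut at the axis). Il13ra1 and Jak1 sit lower in litter B, Stat6 and Tyk2 vary little, and a few mice stand far above the rest for Il2rg.

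The comparison of genotypes asks whether loss of epithelial Sprouty2 went with a change in the machinery that reads IL-4 and IL-13. In the limma model that held genotype alone, none of the 8 genes tested across all genes passed (adjusted p 0.826 to 0.993). None had an unadjusted p under 0.05 in that model, which leaves litter differences in the spread. Over all 15880 genes tested, 0.0315% passed the adjusted and 6.18% the unadjusted threshold. By the two-sided exact permutation test over all mice none of 9 was under 0.05 (p = 0.0844 to 0.905), where 6.01% of all genes were. None had genotypes that did not overlap (0.403% of all genes). With mice exchanged inside litters alone, 1 of 9 was under 0.05 (Il13ra1, exact permutation test, p = 0.025), where 7.31% of all genes were. The median log2 change of the 8 genes was 0.032, beside 0.0076 for all genes, with 4 higher and 4 lower.

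Of the receptor chains, Il13ra1 came nearest to a difference. Its levels were 58.7 to 101 (median 78.9) in Spry2IEKO mice and 60.3 to 80.1 (median 66.6) in Spry2FF mice, and the ranges overlapped. In litter A the 3 Spry2IEKO mice (101, 93.7 and 82.1) were all above the 3 Spry2FF mice (71.2, 72.8 and 80.1). In litter B, 2 Spry2IEKO mice (74.8 and 75.7) were above the Spry2FF mice (60.3, 62.1 and 60.3), and the male Spry2IEKO mouse (58.7) was below them. The log2 change was 0.24 (standard error 0.122, adjusted p = 0.826), and within litters it was 0.30 (A) and 0.18 (B). An exact permutation test that swapped mice inside each litter alone gave p = 0.025, and 7.31% of all genes were under 0.05 by that test. With 1 mouse left out, the exact permutation test across litters gave p = 0.0195 to 0.175. It was under 0.05 in 1 of 12 cases, that without Spry2IEKO replicate 8, the male mouse. Without Spry2IEKO replicates 4 and 5, which had the highest fat markers, the change was 0.099.

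Il4ra itself was at 3.75 to 15.8 (median 7.58) in Spry2IEKO mice and 5.33 to 10.5 (median 6.93) in Spry2FF mice. The log2 change was 0.092 (standard error 0.276, adjusted p = 0.973). Its sign was not the same in both litters (0.37 for A, -0.19 for B). Il13ra2 was at 0.874 to 6.13 and 0.689 to 3.84 in the same order, a log2 change of -0.040 (standard error 0.401, adjusted p = 0.993) whose sign changed in several of the alternatives. Il2rg was at 2.0 to 43.5 in Spry2IEKO mice and 1.2 to 21.1 in Spry2FF mice. The log2 change was 0.78 with a standard error of the same size (0.776, limma adjusted p = 0.902). With 1 mouse left out it ran from 0.32 to 1.18. The difference of means, 6.00 with all mice, then ran from 0.106 to 8.60.

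The kinases and STAT6 differed little in level. Jak1 was 54.1 ± 7.82 in Spry2IEKO and 55.0 ± 6.48 in Spry2FF mice (SD, n = 6), Tyk2 13 ± 1.02 and 13.3 ± 1.04, and Jak3 3.38 ± 0.947 and 2.94 ± 0.785. Stat6 was at 44.4 to 52.5 (median 49.2) in Spry2IEKO mice and 48.4 to 53.9 (median 51.2) in Spry2FF mice, a log2 change of -0.059 with a standard error of 0.0553. That is the narrowest standard error of the 8 genes. The inhibitor Socs1 was 0.217 ± 0.0716 and 0.258 ± 0.199 (SD, n = 6; exact permutation test, p = 0.693). The plot of fitted changes places the 8 genes side by side for genotype and litter.

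**Figure D3:**
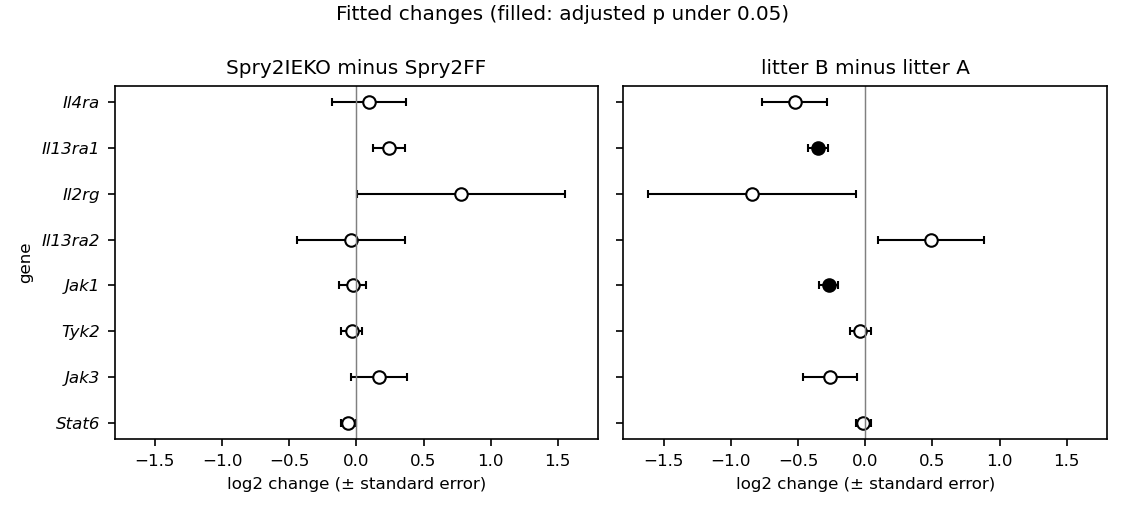
Fitted log2 change with its standard error (horizontal axes) of the 8 genes tested (vertical axis), by genotype with 6 mice against 6 (left) and by litter with 6 against 6 (right). No point is filled on the left; on the right Il13ra1 (-0.35) and Jak1 (-0.27), both lower in litter B, have an adjusted p under 0.05.

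The comparison of litters asks how far mice of litters A and B differ, with both genotypes in each. Libraries of litters A and B also carry different name prefixes, so litter cannot be told apart from what that label marks. Il13ra1 and Jak1, 2 of the 8 genes, were lower in litter B at an adjusted p under 0.05, while over all genes 3.31% were lower at that threshold and 4.38% passed in either direction. Il13ra1 was at 71.2 to 101 (median 81.1) in litter A and 58.7 to 75.7 (median 61.2) in litter B. Its means were 83.6 ± 11.9 and 65.3 ± 7.76 (SD, n = 6), a log2 change of -0.35 (standard error 0.076, adjusted p = 0.0297; exact permutation test, p = 0.013). Jak1 was at 54.3 to 67.6 (median 58.8) in litter A and 45.7 to 55.9 (median 48.5) in litter B. Its log2 change was -0.27 (standard error 0.0691, adjusted p = 0.0467; exact permutation test, p = 0.00649). For both genes the litters overlapped by a few mice. By the exact permutation test these were 2 of 9 genes lower at p under 0.05, where 14.3% of all genes were. None of the 9 had litters that did not overlap (3.72% of all genes). The median over all genes was -0.049.

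The direction of both litter differences held when single mice were left out (log2 change -0.38 to -0.29 for Il13ra1 and -0.31 to -0.23 for Jak1), but the calls did not always. The adjusted p of Il13ra1 stayed under 0.05 in 6 of 12 fits that left out 1 mouse (0.0244 to 0.0735) and that of Jak1 in 2 of 12 (0.0307 to 0.102), although by the exact permutation test both were under 0.05 in all 12. Without Spry2IEKO replicates 4 and 5 the log2 change was -0.28 for Il13ra1 (adjusted p = 0.161) and -0.23 for Jak1 (adjusted p = 0.176). Connective tissue and vessel markers moved with litter too. The 6 fibroblast markers summed to 455 to 749 (litter A) and 258 to 433 (litter B), with 4 of 6 lower after adjustment, and the 4 endothelial markers to 32.0 to 60.6 and 14.1 to 22.0, with 4 of 4 lower. In the same order the 6 epithelial markers summed to 5857 to 7254 and 6686 to 8345, and the 12 leukocyte markers to 102 to 879 and 55.7 to 441. The 5 fat markers summed to 20.8 to 761 and 20.1 to 37.9. Their part in the litter differences was not tested.

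Of the other genes, Il4ra was 9.54 ± 3.4 in A and 6.47 ± 2.19 in B (SD, n = 6), a log2 change of -0.52 (standard error 0.243, adjusted p = 0.232; exact permutation test, p = 0.0779). With 1 mouse left out the exact permutation test gave p = 0.0325 to 0.169. It was under 0.05 in 1 of 12 cases, that without Spry2FF replicate 10. Il2rg (-0.84, standard error 0.773), Jak3 (-0.26, standard error 0.2), Tyk2 (-0.037, standard error 0.0777) and Il13ra2 (0.49, standard error 0.392) did not pass. The test of whether the genotype change differed between litters gave unadjusted p-values of 0.266 to 0.774 for the 8 genes (limma, adjusted p = 0.998 for each), and 0.0126% of all genes passed it.

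Stat6 summed over its transcripts did not differ by litter, but its transcripts went apart. The sum was 50.3 ± 1.73 in A and 49.9 ± 3.39 in B (SD, n = 6; exact permutation test, p = 0.803). Stat6-201, the transcript that encodes STAT6 and held 73.6% of the signal, was at 38.9 to 40.5 in A and 30.0 to 37.6 in B. The litters thus did not overlap (39.8 ± 0.680 and 33.9 ± 3.15, SD, n = 6, exact permutation test, p = 0.00216, the smallest possible). Over all genes 3.72% had litters that did not overlap, and that share is not given for single transcripts. The retained-intron transcripts Stat6-205 and Stat6-204 were higher in mean in litter B: 9.65 ± 1.28 against 6.54 ± 2.13, and 6.31 ± 2.13 against 3.93 ± 1.16. When 45448 transcripts were fitted singly, a choice made after seeing the data, the log2 change of Stat6-201 was -0.23 (standard error 0.0633, adjusted p = 0.0874), that of Stat6-205 0.58 (adjusted p = 0.157) and that of Stat6-204 0.60 (adjusted p = 0.182). None of the 3 passed, and 1.31% of transcripts did. In that fit Il13ra1-201 (adjusted p = 0.0553) and Jak1-201 (adjusted p = 0.0527) also missed the threshold. By genotype Stat6-201 was 35.7 ± 4.75 in Spry2IEKO and 38.1 ± 2.26 in Spry2FF mice (log2 change -0.10, standard error 0.0931, adjusted p = 0.989).

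Males and females were compared because 3 of the 9 genes, Il13ra1, Il13ra2 and Il2rg, lie on the X chromosome. Il13ra2 was at 2.54 to 6.13 (median 3.56) in 4 males and 0.689 to 3.29 (median 1.43) in 8 females. It was 3.95 ± 1.55 (SD, n = 4) and 1.76 ± 0.924 (SD, n = 8; exact permutation test, p = 0.0101). In limma the log2 change was 1.15 (standard error 0.338, unadjusted p = 0.00529, adjusted p = 0.514), so 1 of 8 genes had an unadjusted p under 0.05 where 6.4% of all genes did, and none passed after adjustment (0.0882% of all genes). Of the other X-linked genes, Il13ra1 had a log2 change of -0.18 (standard error 0.135) and Il2rg one of -0.995 (standard error 0.869). Since 3 of the 4 males were Spry2FF mice, sex and genotype were not balanced.

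Il2rg fell into mice with a high and mice with a low level. Spry2IEKO replicates 4, 6 and 11 and Spry2FF replicates 3 and 10 were at 10.7 to 43.5, and the other 7 mice at 1.2 to 5.37. Both litters and both genotypes were among the high mice. Of 12 leukocyte markers, 8 had these same 5 mice as their highest and 2 had 4 of them. Jak3, the kinase that binds the common gamma chain, had the same 5 mice highest, and Il4ra had 4 of the 5. Relative to Ptprc, which encodes the leukocyte antigen CD45, Il2rg varied only from 0.561 to 1.17, with a ratio of 0.768 ± 0.120 for Spry2IEKO and 0.849 ± 0.178 for Spry2FF mice (SD, n = 6 each). The plot of Il2rg against Ptprc shows the values rising together. All 12 leukocyte markers were higher in Spry2IEKO mice by their fitted change (median log2 change 0.67) and none passed the test, and their summed level was 81.3 to 879 in Spry2IEKO and 55.7 to 450 in Spry2FF mice. The 6 epithelial markers were all lower by their fitted change (median log2 change -0.21). Of these 4 were lower at an unadjusted p under 0.05, where 3.17% of all genes were, and none passed after adjustment. Their summed level was 5857 to 7712 in Spry2IEKO and 6804 to 8345 in Spry2FF mice. The part of either cell type in the genotype values of these 9 genes or of Spry2 was not tested.

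**Figure D4:**
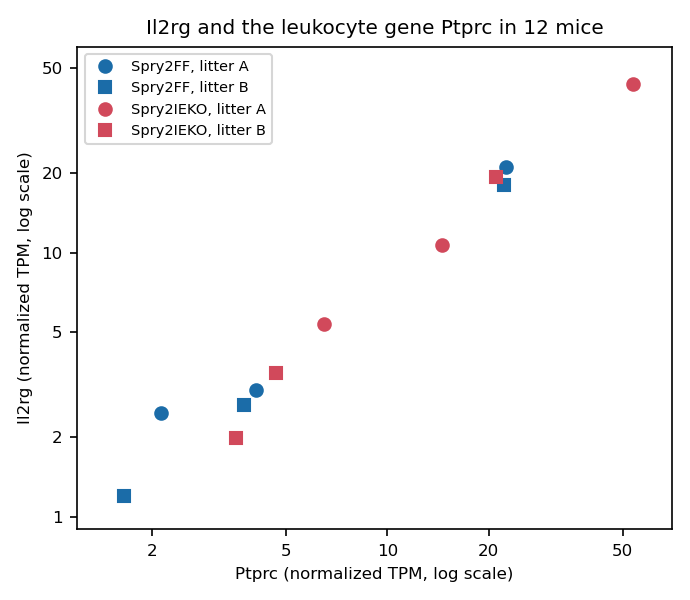
Level of Il2rg (vertical axis) against Ptprc (horizontal axis), both in normalized TPM on log scales, 1 point a mouse; colours give the genotype and shapes the litter. The ratio of Il2rg to Ptprc stays between 0.561 and 1.17 while Il2rg runs from 1.2 to 43.5.

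The ligands gave little signal. Il13 was listed at 0 in all 12 mice. Il4 was at 1.54 to 4.33, but 97.5% of that came from the noncoding transcript Il4-202 and the rest from the protein-coding Il4-204. The log2 change by genotype was -0.24 (standard error 0.231, adjusted p = 0.899).

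The neighbours of the pathway were taken from lists of known parts. Of the receptors that share the common gamma chain, 5 of 6 were tested, all 5 had a higher fitted level in Spry2IEKO mice and none passed (median log2 change 0.30). Il21r (0.56, standard error 0.67) and Il7r (0.35, standard error 0.509) encode the receptors of IL-21 and IL-7. With 1 mouse left out, the change of Il21r ran from 0.14 to 0.95 and that of Il7r from 0.055 to 0.61. Both had the same 5 highest mice as Il2rg. Il15ra, the IL-15 receptor alpha chain and the most abundant of the list, was 15.3 ± 2.47 in Spry2IEKO and 13.3 ± 1.70 in Spry2FF mice (SD, n = 6; log2 change 0.19, standard error 0.116) and shared only 1 of those mice. None of the 7 other Janus kinases and STATs passed by genotype (median -0.015) or by litter. Stat3, which transmits IL-6-type signals, was 59.0 ± 6.99 and 64.4 ± 6.66, and Jak2 37.6 ± 2.71 and 39.6 ± 2.67. Stat5a (0.15, standard error 0.139) and Stat4 (0.15, standard error 0.526) had the largest fitted changes of that list.

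Among the other 11 SOCS genes and phosphatases none passed by genotype (median 0.053) and 2 of 11 were lower in litter B, where 3.31% of all genes were. One was Ptpn1, which encodes the phosphatase PTP1B: 19.5 ± 1.58 in A and 13.7 ± 2.50 in B (SD, n = 6), a log2 change of -0.51 (standard error 0.112, adjusted p = 0.0316). The other, named after its value was seen, was Ptpn11, which encodes SHP-2 (log2 change -0.36, standard error 0.0781, adjusted p = 0.0304). Ptpn6, which encodes SHP-1 of blood cells, was 41.6 ± 24.4 and 33.0 ± 10.2 by genotype, and Socs2 38.2 ± 6.61 and 36.7 ± 6.14 (SD, n = 6). None of the 5 adaptors through which the IL-4 receptor reaches other pathways passed by genotype (median -0.062) or by litter (median -0.34). Irs2, the insulin receptor substrate phosphorylated after IL-4, had a log2 change of 0.40 (standard error 0.23, adjusted p = 0.837), Irs1 one of -0.11 (standard error 0.213), Grb2 one of -0.023 (standard error 0.107) and Shc1 one of -0.062 (standard error 0.0741).

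Genes known to be induced through STAT6 give a readout below the receptors. Of 30 listed genes 25 were tested by genotype and none passed after adjustment. At an unadjusted p under 0.05, 3 were higher and 1 was lower in Spry2IEKO mice, where 3% and 3.17% of all genes were. The median log2 change was -0.024, with 12 genes higher and 13 lower. The 3 higher were Retnlb, Agr2 and Spdef, which goblet cells express, and the lower was Alox15, a lipoxygenase of macrophages and eosinophils. Of other goblet cell genes in the list, Clca1 had a log2 change of 0.63 (unadjusted p = 0.0581 by limma) and Itln1 one of -0.086 (unadjusted p = 0.727 by limma). Spdef, Alox15, Clca1 and Itln1 are named after their values were seen. By litter 1 of 25 genes, Postn, was lower (log2 change -0.50, adjusted p = 0.0321), where 3.31% of all genes were, and it too was named after its value was seen.

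Retnlb, which encodes the goblet cell product RELMβ, had the largest change of the list. In Spry2IEKO mice it was at 15.3, 2.14 and 4.46 in litter A and at 0.219, 3.22 and 9.25 in litter B. In Spry2FF mice it was at 0, 0.220 and 0.231 in litter A and at 0, 0.907 and 0.844 in litter B. Of the 6 Spry2IEKO mice, 5 were above every Spry2FF mouse, and the exception was the male Spry2IEKO mouse, replicate 8. The means were 5.77 ± 5.58 and 0.367 ± 0.407 (SD, n = 6; exact permutation test, p = 0.0108). The log2 change, on the log2(value + 0.5) scale, was 2.40 (standard error 0.616, adjusted p = 0.478). It was 3.21 among litter A mice and 1.60 among litter B mice. With 1 mouse left out it was 2.02 to 2.91 (limma, adjusted p 0.0501 to 0.997), and none of 12 fits passed. The largest change and the lowest adjusted p came without replicate 8. All 4 males were at or below 0.220 and all 8 females at or above 0.231, a narrow gap at a low level. Between the sexes the exact permutation test gave p = 0.0949 and limma an adjusted p of 0.541. With sex as a covariate the change by genotype was 1.83 (limma, adjusted p = 0.921).

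Agr2, a disulfide isomerase needed for mucin folding, was at 1331 to 2476 (median 2115) in Spry2IEKO mice and 1349 to 1731 (median 1490) in Spry2FF mice. The log2 change was 0.44 (standard error 0.133, limma adjusted p = 0.656, exact permutation test p = 0.0152). With 1 mouse left out it was 0.38 to 0.56 (limma, adjusted p 0.0444 to 0.999). It passed in 1 of 12 fits, that without Spry2IEKO replicate 8, the male mouse (0.56, adjusted p = 0.0444). Agr2 was 1415 ± 119 in 4 males and 1980 ± 374 in 8 females (SD; exact permutation test, p = 0.0141), and with sex as a covariate the genotype change was 0.32 (adjusted p = 0.999). Spdef, a transcription factor of goblet cell maturation, had a log2 change of 0.37 (standard error 0.151, adjusted p = 0.753). It was also at lower levels in males (22.9 ± 4.24, n = 4, against 30.9 ± 5.85, n = 8; exact permutation test, p = 0.0444). Fcer2a, the low-affinity IgE receptor of B cells and the gene with the next largest change, was at 0.923 to 35.2 and 0.520 to 15.8 (log2 change 1.03, standard error 0.95), and the 5 mice highest for it were those highest for Il2rg. Sprr2a2, the most abundant gene of the list, was 9433 ± 695 and 10516 ± 1730 (log2 change -0.15, standard error 0.11), and its reads may be shared with the near-identical Sprr2a1 and Sprr2a3. The plot of this list runs from Retnlb and Fcer2a at the top to Alox15 at the bottom.

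**Figure D5:**
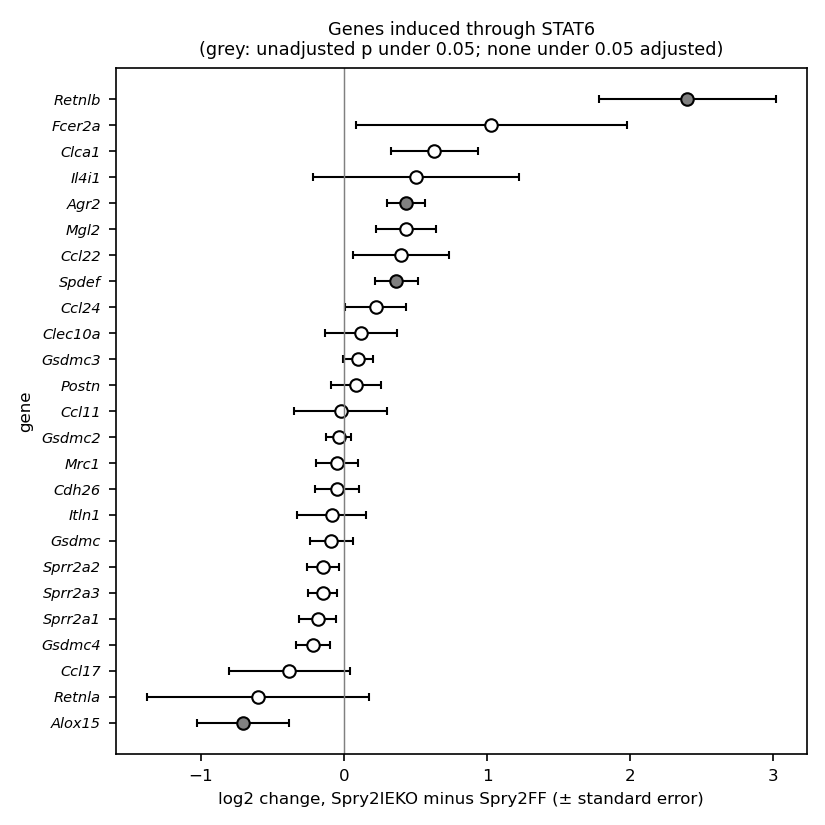
Fitted log2 change by genotype with its standard error (horizontal axis) of the 25 tested genes induced through STAT6 (vertical axis, ordered by change), 6 mice against 6. Retnlb lies at 2.40, Agr2 at 0.44, Spdef at 0.37 and Alox15 at -0.71 (grey, unadjusted p under 0.05), and none passed after adjustment.

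The genes whose levels followed each pathway gene most closely over the 12 mice were found by Pearson's r of log2 values among 15880 genes. They are a description of 12 libraries that share litters and tissue composition, since the highest of so many values is always high. Il2rg was closest to H2-Ab1 (r = 0.993), H2-Eb1 (0.993), which encode MHC class II chains, and Cd53 (0.992), a leukocyte tetraspanin. Il4ra was closest to Cyfip2 (0.983), Emp3 (0.976) and Msn (0.958), the last encoding moesin, which links membranes to actin. Il13ra1 was closest to Flrt3 (0.951), Kctd12b (0.950) and Kcnk6 (0.945), and Jak1 to Tnfrsf1b (0.970), which encodes TNF receptor 2, Mbp (0.947) and Arl6ip5 (0.945). Il13ra2 was closest to Prkcb (0.956), a protein kinase C, Gm44821 (0.874) and Ckap2 (0.850). Jak3 was closest to Wdr18 (0.930), Parp1 (0.928) and Trp53 (0.924). Tyk2 was closest to Mark1 (0.858), Cabin1 (0.828) and Ints1 (0.818), and Stat6 to Gm6548 (0.873), Gm48976 (0.838) and Cdt1 (0.826). No pathway gene was among the closest 3 of another.

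The promoters of all 9 genes, from 250 bases before to 50 after the start in RefSeq (GRCm38.p6), were searched for the letters bound by STAT proteins. The spacing TTCNNNNGAA preferred by STAT6 was in 0 of 9 and the shorter TTCNNNGAA in 0 of 9. Over 32851 promoters of the same length 6.95% and 8.3% held them. Both patterns read the same on either strand. The absence of a match says only that these letters are not in these windows.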

How the data were processed

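RNA from full-thickness distal colon of 12 mice was sequenced as stranded mRNA libraries (paired-end per the labels, single-end per the study). The authors pseudoaligned the reads with kallisto and normalized with sleuth, per the labels, on mm10. The deposited values are a signal per transcript, TPM that was normalized again across the mice. Deposited p-values and other test columns of the authors were not used. Read depth is not part of these values, so no counting interval is given. Of 113974 entries, 781 repeated a transcript and were dropped. The remaining 113193 transcripts were summed to 35241 symbols (28 genes whose names had turned to dates were renamed by Ensembl ID, 1 of them left under that ID).

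The 15880 genes whose mean reached 0.5 were fitted with limma 3.58.1 in R 4.3.3 (moderated two-sided test with a mean-variance trend, p-values adjusted by Benjamini-Hochberg over all genes, threshold 0.05) on log2(value + 0.5). Models held genotype; genotype and litter; their interaction; or genotype and sex. This scale understates changes of low genes. A test for TPM had been planned and was kept for the scaled signal. Each of the 9 genes was also compared by an exact permutation test of means over all 924 splits (SciPy 1.17.1 with NumPy 2.4.6 and pandas 2.3.3 in Python 3.11.15; plots by matplotlib 3.10.9). Both tests were checked on simulated data. Mice are separate animals, and genotype, litter and sex came from the labels.

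In each list of pathway neighbours, the 2 genes with the largest change by genotype and the 2 with the highest mean are named, and for each of the 8 tested genes the 3 genes with the highest Pearson's r. The members and lists were chosen with earlier results of these data known. Alternatives were pseudocounts 0.1 and 1, no filter or a mean of at least 1, rescaled totals, quantile normalization, litter and sex as covariates, subsets of mice, protein-coding transcripts alone, and each mouse left out. Leaving out the 2 mice with the highest fat markers, fitting single transcripts and exchanging mice within litters over all genes were added after seeing the data. Transcript structures came from GENCODE M21.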

Additional observations from a re-analysis of the deposited data

Results flagged for a closer look

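Chance alone sets 1 mouse apart in about 1 group in 20. In 58 groups of 6 mice (some but not all of the genes described above, each in both genotypes), 5 had 1 mouse far from the other 5. Spry2IEKO replicate 4 held 4 of them, and no cause was tested. Its Socs1 was 0.351 (0.134 to 0.212 in the others of its genotype), its Il21r 10.1 (0.645 to 3.15), its Jak2 43.1 (36.0 to 36.7) and its Grb2 98.7 (66.1 to 77.1). It was also the mouse with the highest Il2rg and Il4ra. Spry2FF replicate 9 had a Socs2 of 48.3, against 31.2 to 36.7 in the other Spry2FF mice. The genotype differences of Il21r, Jak2, Grb2 and Socs2 did not pass the test of a difference between litters (limma, adjusted p = 0.998 for each), and Socs1 did not enter that fit.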

How the results depend on the processing

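Over 247 alternatives for 34 results on the 9 genes, mice left out aside, 222 kept direction and side of the threshold, 11 reversed, 11 lost the threshold and 3 reached it; causes were not tested. Single mice could not be paired, because the genotypes share no replicate numbers. Each litter held 3 mice of each genotype, so litter was used as a block. With litter as a covariate none of the 8 genes passed by genotype after adjustment. The study states an approximate read depth for its samples, but not the depth of each mouse. No counting error was worked out for the low values of Socs1 and Il13ra2 or for the zeros of Il13.

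Genes past the threshold by genotype numbered 5, and 1 with no filter, sex as a covariate, litter B alone or both fat-rich mice left out, 2 with quantile normalization, litter A alone or females alone, and 1 to 11 with a mouse left out. By litter there were 696, but 422 with no filter, 1456 with rescaled totals, 17 without the fat-rich mice, 180 to 957 with a mouse left out (180 without Spry2IEKO replicate 5), and 1 in Spry2FF mice, Spry2IEKO mice or females alone. The interaction count, 2, ran from 2 to 5 and the sex count, 14, from 7 (without Spry2IEKO replicate 8) to 20 with a mouse left out. Of the 9 genes by exact permutation, 0 differed by genotype, and 1 (Il13ra1) when exchanged within litters; with a mouse left out it was 0 to 1, and 2 to 3 by litter.

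Jak1 lost its litter call with no filter (adjusted p = 0.0634), quantile normalization (0.0685) and sex as a covariate (0.0538), and both Jak1 and Il13ra1 lost theirs within either genotype and in females alone (limma, adjusted p 0.114 to 0.376), where fewer mice were tested. The log2 change of Jak1 was -0.27 with no filter, and in these subsets the changes were -0.41 to -0.29 for Il13ra1 and -0.31 to -0.20 for Jak1. With rescaled totals Il4ra by litter gave an exact permutation p of 0.0455.

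Log2 changes by genotype reversed for Il13ra2 (0.34 with sex, 0.10 in litter B, 0.14 in females). They reversed for Jak1 (0.0074 in litter A, 0.075 in females) and Il4ra (-0.19 in litter B, -0.14 without the fat-rich mice). Grb2 (0.0049 with sex, 0.021 in litter A, 0.14 in females) and Socs2 (-0.0044 in litter A) reversed too. So did Stat5a (-0.030) and Ptpn6 (-0.014) in litter B, and Stat4 (-0.13 without the fat-rich mice). The difference of means of Il13ra2 by genotype, 0.121, became -0.040 when taken on log2 values. By litter, Tyk2 (0.039) and Stat6 (0.012) reversed with quantile normalization and Stat6 (0.044) in Spry2FF mice alone.

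With a mouse left out, signs changed within these ranges of the log2 change by genotype: Il4ra -0.10 to 0.29, Il13ra2 -0.31 to 0.15, Jak1 -0.095 to 0.017, Stat4 -0.19 to 0.41, Ptpn6 -0.039 to 0.39, Socs2 -0.018 to 0.13, Irs1 -0.21 to 0.022 and Grb2 -0.10 to 0.037; by litter, Stat6 -0.033 to 0.016. Differences of means by genotype ran for Il4ra from -0.514 to 1.90, Il13ra2 from -0.594 to 0.457, Jak1 from -3.67 to 0.721 and Socs1 from -0.0843 to 0.0280, and by litter for Stat6 from -1.20 to 0.685 and Socs1 from -0.00099 to 0.0953.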
